A study of Homo sapiens with 3 samples.

Results

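The 40 genes described here encode the machinery that carries proteins between the endoplasmic reticulum (ER) and the Golgi apparatus: COPII coat (8 genes), COPII GTPases and exit-site factors (5), COPI coat (9), ARF GTPases (2), cargo receptors (11) and SNAREs with 1 tether (5). They were taken by gene name, and all 40 were found among the 58243 genes in the deposited tables. RNA-seq was done on human cells with the label LoVo, the name of a colorectal carcinoma line, in which doxycycline switches on a short hairpin RNA against HRD1 (gene SYVN1), the ubiquitin ligase of ER-associated degradation. All 3 libraries carry the same Tet-On hairpin construct. They were made after 0, 3 and 5 days of doxycycline at 1 µg/ml, with 1 library per time, and they held 21308785, 22068686 and 25754188 gene reads. Differences between times therefore have no replicate check and no p-value, and every interval given is a 95% interval that covers counting error only. No library with a non-targeting hairpin was analysed here, so hairpin, doxycycline and days in culture cannot be told apart.

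The targeted gene followed the labels: SYVN1 had 1212, 650 and 709 reads at days 0, 3 and 5, a log2 ratio of -0.88 (interval -1.02 to -0.74) for day 3 over day 0 and -1.05 (-1.19 to -0.92) for day 5 over day 0. The tissue label was less well matched. Of 8 colon epithelium markers, 0 reached 1 TPM (the authors' length-corrected level) in any library, and CDX1 and CDX2 were listed at 0. Of 8 general epithelial markers 5 did, with KRT8 at 465 TPM but EPCAM at 0.724 TPM at day 0. Of 9 mesenchymal markers 6 reached 1 TPM in each library. At day 0 VIM stood at 4016 of their summed 4110 TPM, while CDH2 was at 0.123 TPM and COL1A2 and THY1 were at 0. In the day 5 library 5 liver markers summed to 25.3 TPM, against 0.284 TPM at day 3 and 0.0946 TPM at day 0, and 5 blood markers summed to 12.8 TPM, against 2.55 and 0.0242 TPM. Their part in the day 5 results was not tested.

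Secretory and membrane proteins leave the ER in vesicles coated by COPII. The GTPase SAR1, switched on by PREB, recruits the inner coat of SEC23 and SEC24, which binds cargo, and then the outer cage of SEC13 and SEC31. SEC16A and TFG organise the exit sites where this happens. COPI, a heptamer recruited by ARF GTPases, coats vesicles that return escaped ER proteins and recycled receptors. Cargo receptors of the TMED (p24) and LMAN lectin families, with SURF4, link soluble cargo to the coats, and SNAREs and the tether USO1 (p115) bring vesicles to their target membrane. In human cells under ER stress the transcription factors XBP1 and ATF6 raise many secretory-pathway genes.

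Because that response acts through short promoter motifs, the RefSeq promoter windows of the members (GRCh38.p14, 250 bases before to 50 bases after each start) were searched on both strands. Windows were given for 35 of the 40 genes, 48 windows in all; SEC24D, ARF4, TMED4, TMED9 and USO1 had none. The unfolded protein response element (UPRE), TGACGTGG, occurred in 8 of 35 members (22.9%), against 0.927% of all 27305 genes with a window and 1.24% of the 9428 such genes measured here. Its 9 occurrences are shown so that the letters around the motif can be read, with the motif in capitals (CCACGTCA where it reads on the opposite strand), 11 bases on each side, 5′ to 3′ on the strand of the gene:
SEC23A (chr14:39103221-39103250, minus strand): tcccctcctctTGACGTGGcagaggcggcg
SEC24A (chr5:134648595-134648624, plus strand): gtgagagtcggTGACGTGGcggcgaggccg
SEC16A (chr9:136484707-136484736, minus strand): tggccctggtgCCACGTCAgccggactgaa
COPA (chr1:160343227-160343256, minus strand): gagagggtcgcTGACGTGGaggcgtccgaa
COPB1 (chr11:14499841-14499870, minus strand): cccacccccttCCACGTCAgccaaggactc
COPB2, upstream (chr3:139389825-139389854, minus strand): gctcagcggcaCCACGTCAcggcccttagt
COPB2, downstream (chr3:139389632-139389661, minus strand): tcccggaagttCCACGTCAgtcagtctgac
ARF1 (chr1:228082681-228082710, plus strand): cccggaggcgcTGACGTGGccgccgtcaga
STX5 (chr11:62832049-62832078, minus strand): ttacgtgtaggTGACGTGGccgcttccagt

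COPB2 held the motif at 2 places. Of the 8 genes 5 encode coat subunits of COPI or COPII, classes that make up 9 and 8 of the 40 members. Every UPRE also contains the shorter letters CCACG, the core of the ER stress response element, which were found in 32 of 35 members (91.4%), against 42.1% of all genes with a window and 57.8% of those measured. The full ER stress response element, CCAAT and CCACG with 9 bases between them, was in 0 of 35 members (0.0916% of all genes) and in the window of HSPA5, the ER chaperone BiP. Its variant II, ATTGG and CCACG with 1 base between them, and the cyclic AMP response element, TGACGTCA, were each in 0 of 35 members (0.0696% and 2.25% of all genes). The C/EBP-ATF letters TGATGNAA were in 1 member, MCFD2 (4.46% of all genes). A match describes letters and not binding. In the libraries the 8 genes with a UPRE did not move one way: for day 3 over day 0 their log2 ratios ran between -0.19 (SEC16A) and 0.26 (ARF1) with a median of 0.02, and for day 5 over day 0 between -0.28 (STX5) and 0.23 (SEC24A) with a median of -0.01. The 26 measured members with a window and no UPRE had medians of 0.10 and 0.07, and all 117 measured genes with a UPRE had medians of 0.01 and 0.02.

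On the length-corrected scale the machinery spanned a wide range of levels that was alike in the 3 libraries. ARF1, which recruits COPI to Golgi membranes, was the most abundant member with 577, 635 and 564 TPM at days 0, 3 and 5. ARF4, its relative at the ER-Golgi boundary, followed at day 0 with 422 TPM, then the cargo receptor SURF4 with 406, LMAN2 with 330 and TMED9 with 313 TPM. At the low end the SNARE BET1 had 11.2, 12.8 and 16.1 TPM and GOSR2 had 13.4, 11.6 and 14.1 TPM. COPZ2, the minor zeta subunit of COPI, was nearly silent with 1, 5 and 2 reads and is given no ratio. The other 39 members had a mean of at least 50 reads, the minimum set for a ratio. Summed over the 40 genes the machinery took 5608, 5601 and 5772 TPM, so the summed level differed less than that of many single genes.

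**Figure D1:**
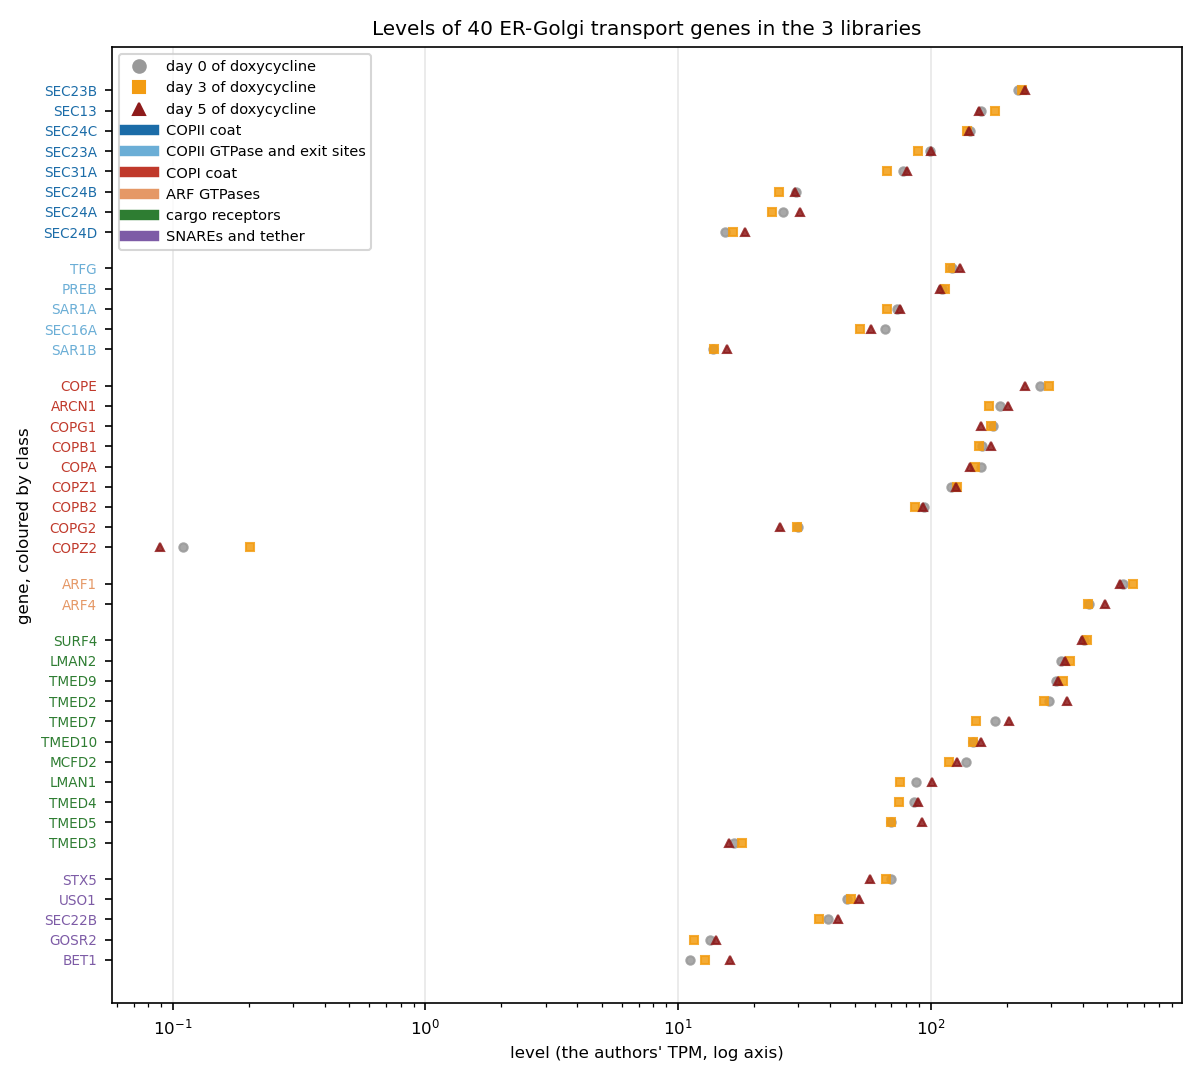
Level of each member at days 0, 3 and 5 (x axis, TPM on a log scale; 1 point per library, genes grouped by class down the page). The 3 points of a gene lie close together compared with the spread between genes, and COPZ2 stands alone below 1 TPM.

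Differences between the times were small. A gene was counted as apart when its normalised reads differed by at least 1.2-fold with an interval excluding 1. For day 3 over day 0, SEC13 and BET1 were higher by this rule, 2 of 39 members, and 0 were lower; among all 12593 genes with enough reads 9.98% were higher and 10.7% lower. For day 5 over day 0, TMED5 and BET1 were higher and STX5 was lower, 2 and 1 of 39, against 9.43% and 7.81% of all genes. In both comparisons, as normalised, the members' shares lay below those of all genes. For day 5 over day 3, 3 members were higher (TMED5, TMED7 and LMAN1) and 6 lower (SEC13, COPE, COPG2, ARF1, TMED3 and STX5), against 12.4% and 10.9% of all genes. ARF1 at day 3 over day 0, with a log2 ratio of 0.26, lay just inside the 1.2-fold limit. At 1.5-fold 0 members were apart in any comparison, where all genes gave 1.29% higher and 2.53% lower for day 3 over day 0, 1.76% and 1.28% for day 5 over day 0, and 2.29% and 0.961% for day 5 over day 3. HSPA5 was 1.65-fold higher at day 3 than at day 0. RNA from a culture does not separate fewer cells of a kind from less RNA per cell. Scaling changed these counts: with the authors' TPM 0 were higher and 1 lower (SEC16A) for day 3 over day 0, against 5.07% and 20.8% of all genes, and 7 were higher and 1 lower for day 5 over day 3, against 23.1% and 5.66%. With length and GC trends removed, 6, 3 and 2 members were apart in the 3 comparisons; the 6 for day 3 over day 0 were all higher, where 7.18% of all genes were.

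A looser count, of genes whose interval excluded 1 at any size, also took in smaller shifts. The width of an interval depends on the number of reads, and the shares of all genes given here were not matched for read depth. How much of the difference between members and all genes in this count comes from depth was not tested. For day 3 over day 0, 21 of 39 members lay above and 5 below, against 25.2% and 20.8% of all genes, and the members' median log2 ratio was 0.09 against 0.01 for all genes. For day 5 over day 0, 19 lay above and 7 below, against 22.8% and 22.4%, with medians of 0.06 and 0.01. Day 5 over day 3 had 13 above and 15 below, against 24.0% and 26.1%, with medians of 0.03 and 0.00; with trends removed it had 8 above and 18 below (21.0% below among all genes) and a median of -0.07, and with the authors' TPM the median was 0.12, against 0.09 for all genes. The first 2 comparisons share the day 0 library. A set of 12 genes lay above day 0 at both times: SEC23B, SEC24D, TFG, COPB1, COPZ1, ARF4, TMED2, TMED5, TMED10, LMAN2, BET1 and USO1. SEC16A and MCFD2 lay below day 0 at both, and 29 of 39 members stayed within 1.2-fold in all 3 comparisons. The matching counts over all genes were not made, so these counts are not shown to be particular to the members. Some of these genes also changed with the setting. With trends removed SEC16A was at -0.01 for day 5 over day 0. With the authors' TPM COPB1, ARF4 and TMED5 were at -0.04, -0.01 and -0.0003 for day 3 over day 0. SEC23B, SEC24D, COPZ1, LMAN2 and BET1 had ratios above day 0 at both times under every setting. With the authors' TPM the members' day 3 median was -0.03, where the median of all genes was -0.08.

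**Figure D2:**
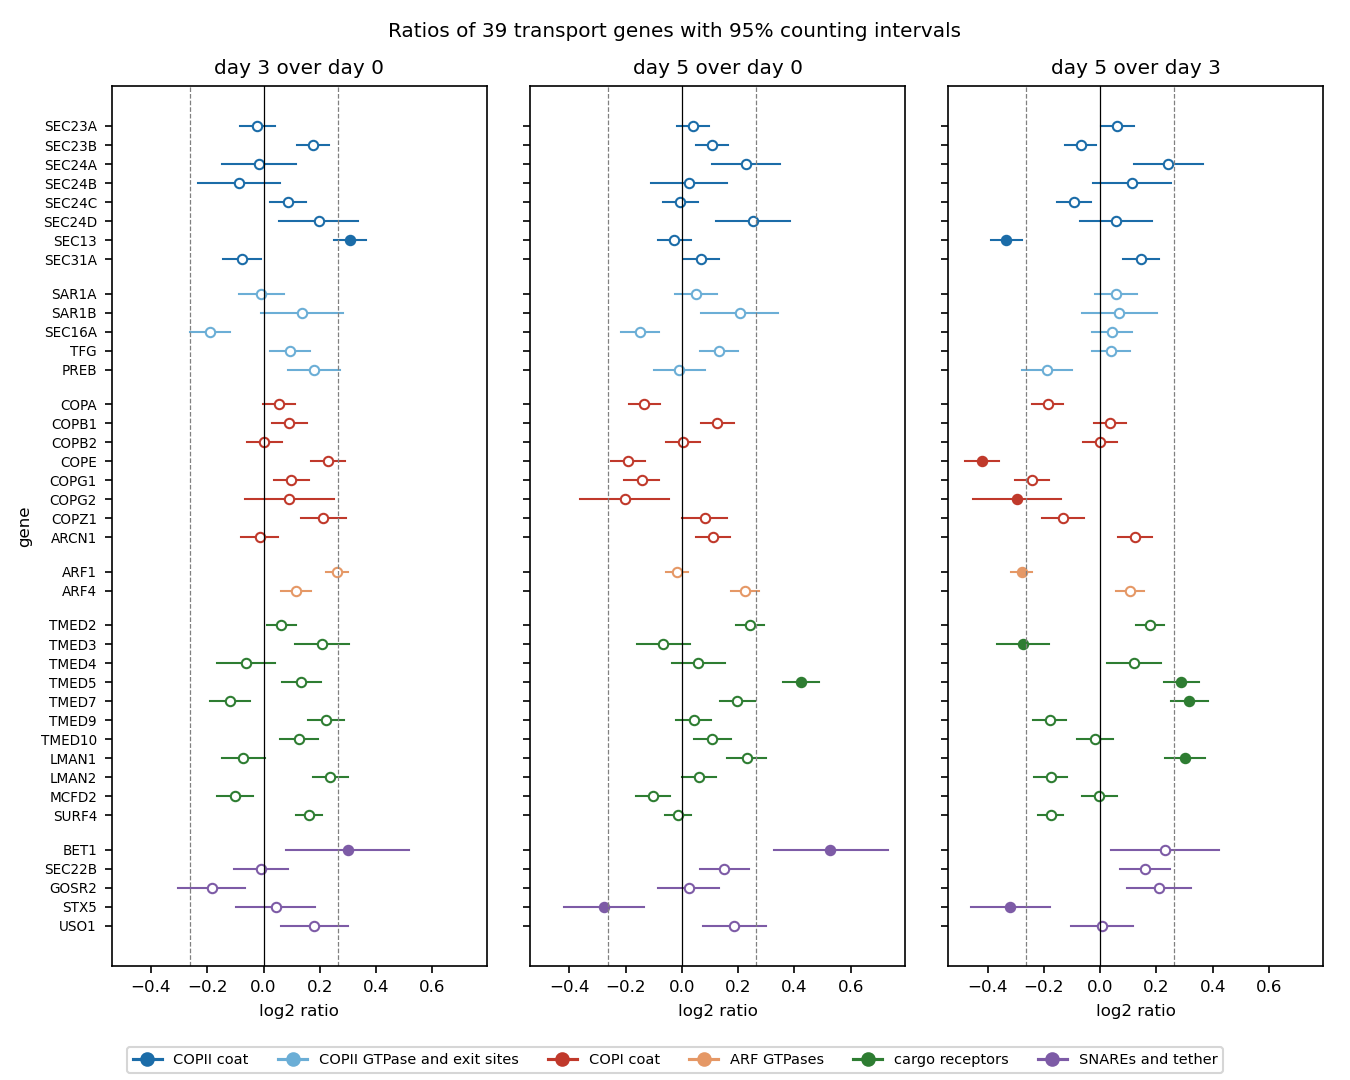
Log2 ratio of normalised reads for the 39 measured members in each comparison (x axis), with 95% counting intervals; rows are genes coloured by class, filled points are apart by at least 1.2-fold with an interval excluding 1, and dashed lines mark 1.2-fold. Most points lie between the dashed lines, and COPE has the lowest ratio for day 5 over day 3 (-0.42).

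In the COPII coat, SEC13, a beta-propeller protein of the outer cage that also belongs to the nuclear pore, moved the most. It had 4468, 5459 and 5328 reads at days 0, 3 and 5. The day 3 library was high relative to both others: the log2 ratio was 0.31 (interval 0.25 to 0.36) for day 3 over day 0, -0.03 (-0.08 to 0.03) for day 5 over day 0 and -0.33 (-0.39 to -0.28) for day 5 over day 3. Its cage partner SEC31A had 3654, 3421 and 4656 reads and took the other course, at -0.08 (-0.15 to -0.01) for day 3 over day 0 and 0.07 (0.01 to 0.13) for day 5 over day 0. With library totals or the authors' TPM, SEC13 was not apart for day 3 over day 0 (0.24 and 0.19) or for day 5 over day 3 (-0.26 and -0.21), and with trends removed it was not apart for day 5 over day 3 (-0.23).

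The inner coat has paralogues that differ in cargo. SEC23A and SEC23B, the GTPase-activating subunits, summed to 322, 319 and 338 TPM, and SEC23B made up 69.1%, 72.1% and 70.2% of that level. SEC23B had 4515, 5041 and 5907 reads, with a log2 ratio of 0.18 (0.12 to 0.23) for day 3 over day 0, while SEC23A, with 4408, 4291 and 5503 reads, had -0.02 (-0.08 to 0.04). The ratio of SEC23A to SEC23B reads was 0.851 at day 3 and 0.976 at day 0, a log2 difference of -0.20 (-0.28 to -0.11). This difference was smaller with length and GC trends removed. SEC23A was then at 0.10 for day 3 over day 0, and SEC23B was at most 0.18 under any setting.

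Among the SEC24 cargo-binding subunits, SEC24C dominated with 67.0%, 68.1% and 64.5% of a summed 214, 204 and 220 TPM. Of the minor forms, SEC24A and SEC24D gained on it at day 5 as normalised. SEC24A had 947, 926 and 1347 reads, a log2 ratio of 0.23 (0.11 to 0.35) for day 5 over day 0, and SEC24D had 787, 891 and 1139 reads, 0.25 (0.12 to 0.39), the value nearest below the 1.2-fold limit in that comparison. SEC24C itself, with 3852, 4044 and 4660 reads, was at -0.01 (-0.07 to 0.06). Set against SEC24C, the day 5 over day 0 change was 0.23 (0.10 to 0.37) for SEC24A and 0.26 (0.11 to 0.41) for SEC24D. Both gains were smaller with length and GC trends removed. The day 5 over day 0 ratios were then 0.14 for SEC24A, 0.23 for SEC24D and 0.06 for SEC24C. SEC24B, with 796, 740 and 984 reads, was at 0.03 (-0.11 to 0.16) and its levels did not differ beyond counting error. SEC24C had 76.3% uniquely placed reads, so its values are less certain than those of the others.

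SAR1, the GTPase that starts COPII assembly, was made mainly from SAR1A, at 84.3%, 82.9% and 82.9% of 87.7, 81.2 and 91.5 TPM. SAR1A, with 2615, 2571 and 3287 reads, did not differ from day 0 beyond counting error, and SAR1B, the form used for chylomicron export, had 754, 819 and 1056 reads and a log2 ratio of 0.21 (0.07 to 0.34) for day 5 over day 0. SAR1B and SEC24A lie head to head on chromosome 5, and their gene ranges in the files overlap (chr5:134601144-134649271, minus strand, and chr5:134648789-134727823, plus strand). The exit-site scaffold SEC16A was the lowest member at day 3 as normalised: it had 3406, 2949 and 3733 reads, -0.19 (-0.26 to -0.12) for day 3 over day 0 and -0.15 (-0.22 to -0.08) for day 5 over day 0. With length and GC trends removed SEC16A was at -0.10 and -0.01. TFG, with 3129, 3303 and 4169 reads, lay slightly above day 0 at both times (0.09, 0.02 to 0.17, and 0.13, 0.07 to 0.20). PREB, the exchange factor that loads SAR1 with GTP, had 1765, 1975 and 2131 reads, with 0.18 (0.09 to 0.27) for day 3 over day 0 and -0.01 (-0.10 to 0.08) for day 5 over day 0.

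The COPI coat was mostly lower at day 5 than at day 3. Against day 0, 7 of its 8 measured genes had a day 3 ratio above 1 (52.0% of all genes) and 4 had an interval above 1, with a median log2 ratio of 0.09; with the authors' TPM this median was -0.03. Relative to day 3, day 5 ratios were below 1 in 6 of 8 genes (50.1% of all genes were above 1). Of the 8, 5 had an interval below 1 (26.1% of all genes, not matched for read depth). The median was -0.16, against 0.06 for the COPII coat, 0.00 for all genes and close to 0 for the cargo receptors. The median of the COPI coat for day 5 over day 3 was below 0 under each of the alternative settings, between -0.19 and -0.04, and between -0.19 and -0.13 relative to the median of all genes under the same setting. The cargo receptors were less steady: among genes with at least 90% uniquely placed reads their median was -0.18, as low as that of the COPI coat (-0.16). Since coat subunits assemble in fixed numbers, the subunits are given one by one.

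Epsilon-COP (COPE) had the lowest ratio of the coat for day 5 over day 3 as normalised. It had 4097, 4745 and 4360 reads, and the day 3 library was the highest: 0.23 (0.17 to 0.29) for day 3 over day 0, -0.19 (-0.25 to -0.13) for day 5 over day 0 and -0.42 (-0.48 to -0.36) for day 5 over day 3. Gamma-COP has a major and a minor gene. COPG1, with 3936, 4167 and 4331 reads, had -0.24 (-0.30 to -0.18) for day 5 over day 3, and COPG2, with 634, 668 and 669 reads, had -0.30 (-0.45 to -0.14). With length and GC trends removed COPE was at -0.20 and no longer apart, and COPG2, at -0.35, was the lowest of the coat. With library totals or the authors' TPM, COPG2 was at -0.22 and -0.21, under 1.2-fold. Their proportion held: COPG1 made up 85.5%, 85.5% and 86.1% of 207, 203 and 183 TPM.

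Alpha-COP (COPA), part of the outer layer of the coat that binds retrieval signals, had 4953, 5080 and 5488 reads and -0.19 (-0.24 to -0.13) for day 5 over day 3. COPZ1, the zeta subunit, had 2338, 2678 and 3004 reads and -0.13 (-0.21 to -0.06). The remaining subunits did not follow. COPB1 (beta-COP), with 4112, 4329 and 5450 reads, was at 0.03 (-0.02 to 0.09). COPB2 (beta prime), with 4027, 3989 and 4901 reads, had ratios of 0.00 for both times over day 0. ARCN1 (delta-COP), with 3909, 3826 and 5126 reads, was at 0.12 (0.06 to 0.19), the highest of the coat. The subunits with lower ratios included those with the most GC-rich transcripts (COPE 62.8%, COPG1 52.4%), while ARCN1 had 43.8% and COPB1 41.2%. The corresponding trend over all genes is given further on. With length and GC trends removed, COPE moved from -0.42 to -0.20 but COPG2 moved the other way, from -0.30 to -0.35. After removal of length and GC trends 7 of 8 COPI genes had an interval below 1 for day 5 over day 3 (21.0% of all genes, not matched for read depth). Their median was -0.14, against -0.04 for the COPII coat and 0.03 for the cargo receptors. The SNAREs with the tether were also low in this setting, at -0.11 (0.16 as normalised), and all members were at -0.07.

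**Figure D3:**
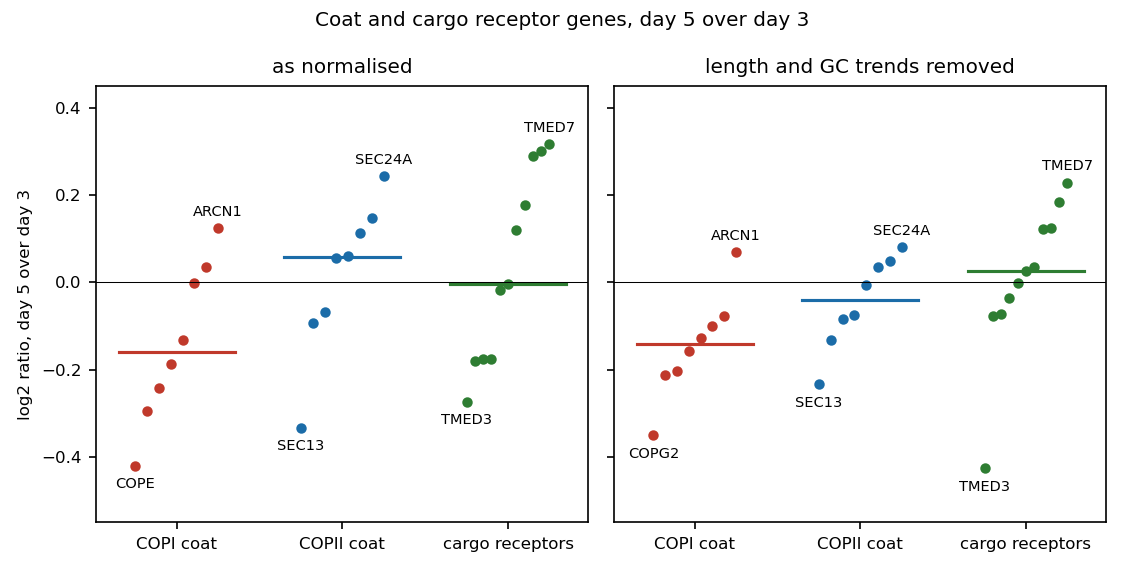
Log2 ratio for day 5 over day 3 of each gene in the COPI coat, the COPII coat and the cargo receptors (points; horizontal bars are class medians), as normalised (left) and after removal of the trends on exon length and GC content (right); the lowest and highest gene of each class is named. The COPI median is -0.16 on the left and -0.14 on the right, and the COPII median is 0.06 and -0.04.

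Of the ARF GTPases, ARF1 had 9508, 11260 and 11411 reads. It was high at day 3, with a log2 ratio of 0.26 (0.22 to 0.30) for day 3 over day 0, -0.02 (-0.06 to 0.02) for day 5 over day 0 and -0.28 (-0.32 to -0.24) for day 5 over day 3. The last value was under 1.2-fold with library totals, the authors' TPM, unique reads or exon reads, between -0.26 and -0.17, and -0.10 with trends removed. ARF4, with 5528, 5924 and 7841 reads, lay above day 0 at both times, at 0.12 (0.06 to 0.17) and 0.22 (0.17 to 0.27), and was still higher at day 5 than at day 3 (0.11, 0.06 to 0.16). The 2 GTPases thus differed in direction for day 5 over day 3. With the authors' TPM ARF4 was at -0.01 for day 3 over day 0.

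The cargo receptors also differed among themselves. The 7 TMED genes, whose products form hetero-oligomers that cycle between ER and Golgi, summed to 1108, 1076 and 1225 TPM. TMED5 had 3298, 3577 and 5371 reads, with a log2 ratio of 0.13 (0.07 to 0.20) for day 3 over day 0 and 0.42 (0.36 to 0.49) for day 5 over day 0. It was the cargo receptor with the highest day 5 ratio, and its range (chr1:93149742-93180728, minus strand) overlaps CCDC18 on the opposite strand; 83.6% of its reads were uniquely placed. TMED2, with 5610, 5795 and 8054 reads, was at 0.24 (0.19 to 0.29) for day 5 over day 0.

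TMED9, which with TMED2 made up most of the family's level, had 3778, 4353 and 4724 reads. Its log2 ratio was 0.22 (0.16 to 0.28) for day 3 over day 0 and 0.04 (-0.02 to 0.10) for day 5 over day 0. TMED3, with 1689, 1928 and 1961 reads, did likewise, at 0.21 (0.11 to 0.30) and -0.07 (-0.16 to 0.03), and was apart for day 5 over day 3 (-0.27, -0.36 to -0.18). That value was under 1.2-fold with library totals, the authors' TPM, unique reads or exon reads, between -0.26 and -0.16. With trends removed TMED3 was at 0.43 for day 3 over day 0 and -0.42 for day 5 over day 3. TMED10, with 3330, 3591 and 4362 reads, lay above day 0 by 0.13 and 0.11, with 41.2% uniquely placed reads. TMED4, with 1618, 1532 and 2048 reads, did not differ from day 0 beyond counting error.

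TMED7 is uncertain. It had 3477, 3163 and 4843 reads, -0.12 (-0.19 to -0.05) for day 3 over day 0 and 0.32 (0.25 to 0.38) for day 5 over day 3, but 3.71% of its reads were uniquely placed, and it overlaps the read-through gene TMED7-TICAM2 on the same strand. With its 143, 154 and 129 unique reads the signs turned round, to 0.12 (-0.22 to 0.46) for day 3 over day 0, -0.41 (-0.77 to -0.06) for day 5 over day 0 and -0.53 (-0.88 to -0.19) for day 5 over day 3.

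Among the lectins, LMAN1 (ERGIC-53) carries glycoproteins such as blood-clotting factors out of the ER with its partner MCFD2. LMAN1 had 2946, 2771 and 4198 reads, -0.07 (-0.15 to 0.00) for day 3 over day 0, 0.23 (0.16 to 0.30) for day 5 over day 0 and 0.30 (0.23 to 0.37) for day 5 over day 3. With trends removed the last 2 values were each 0.12, under 1.2-fold. MCFD2, with 4157, 3833 and 4701 reads, lay below day 0 by the same amount at both times (-0.10, -0.16 to -0.04), with 20.7% uniquely placed reads. The pair thus had ratios of opposite sign for day 5 over day 0. LMAN2 (VIP36), with 3945, 4598 and 5004 reads, and SURF4, a receptor for soluble cargo, with 7018, 7759 and 8443 reads, were highest relative to day 0 at day 3, at 0.24 (0.18 to 0.30) and 0.16 (0.11 to 0.21), and both were at -0.18 for day 5 over day 3. With length and GC trends removed LMAN2 had its highest ratio at day 5, at 0.13 against 0.09 at day 3, and was at 0.04 for day 5 over day 3. Over the 11 receptors the median for day 3 over day 0 was 0.13; with the authors' TPM it was -0.00 against -0.08 for all genes.

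In the fusion machinery, BET1 and STX5, partners in the same ER-Golgi SNARE complex, stood at opposite ends. BET1 had 315, 383 and 552 reads, with a log2 ratio of 0.30 (0.08 to 0.52) for day 3 over day 0 and 0.53 (0.33 to 0.73) for day 5 over day 0, the highest of all members. Of its reads 49.5% were uniquely placed, and with these alone it was no longer apart at day 3. STX5 had 817, 832 and 820 reads, which after normalisation gave 0.04 (-0.10 to 0.18) for day 3 over day 0 and -0.28 (-0.42 to -0.13) for day 5 over day 0; with unique reads or with trends removed it lay just under 1.2-fold, at -0.26 and -0.25. The other SNAREs lay between. SEC22B, with 1822, 1790 and 2458 reads, was at 0.15 (0.06 to 0.24) for day 5 over day 0, and GOSR2, with 1240, 1079 and 1532 reads of which 8.39% were unique, was at 0.02 (-0.08 to 0.13). USO1, with 1096, 1227 and 1516 reads, lay above day 0 at both times, at 0.18 (0.06 to 0.30) and 0.19 (0.07 to 0.30).

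The members' day 5 ratios followed base composition. Across the 39 genes the Spearman correlation of the log2 ratio with transcript GC content was 0.28 for day 3 over day 0, -0.70 for day 5 over day 0 and -0.70 for day 5 over day 3; across 12487 genes it was 0.17, -0.43 and -0.54. These are correlations across genes of the same libraries, which are not independent replicates. When all genes were divided into 4 equal groups by GC content, the 11 members in the lowest group, which include TMED5, BET1, LMAN1 and SEC24A, had a median of 0.20 for day 5 over day 0, against 0.12 for all genes of that group. The 4 members in the GC-richest group (COPE, LMAN2, PREB and ARF1) had a median of -0.01, against -0.11. With exon length the members' correlations were -0.35, 0.16 and 0.40, against -0.38, -0.10 and 0.25 across all genes. After removal of both trends 6 members were apart for day 3 over day 0, all higher (SEC24D, SEC13, SAR1B, TMED3, TMED5 and BET1), where 7.18% of all genes were higher and 8.71% lower. With day 5 over day 3 treated alike 2 were apart, both lower (COPG2 and TMED3), where 7.77% were higher and 5.29% lower. TMED5 and BET1 at day 5 over day 0 were still higher (6.87%), at 0.30 and 0.36, and COPG2 was lower (5.59%). The part of base composition in the results was not tested beyond these values.

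**Figure D4:**
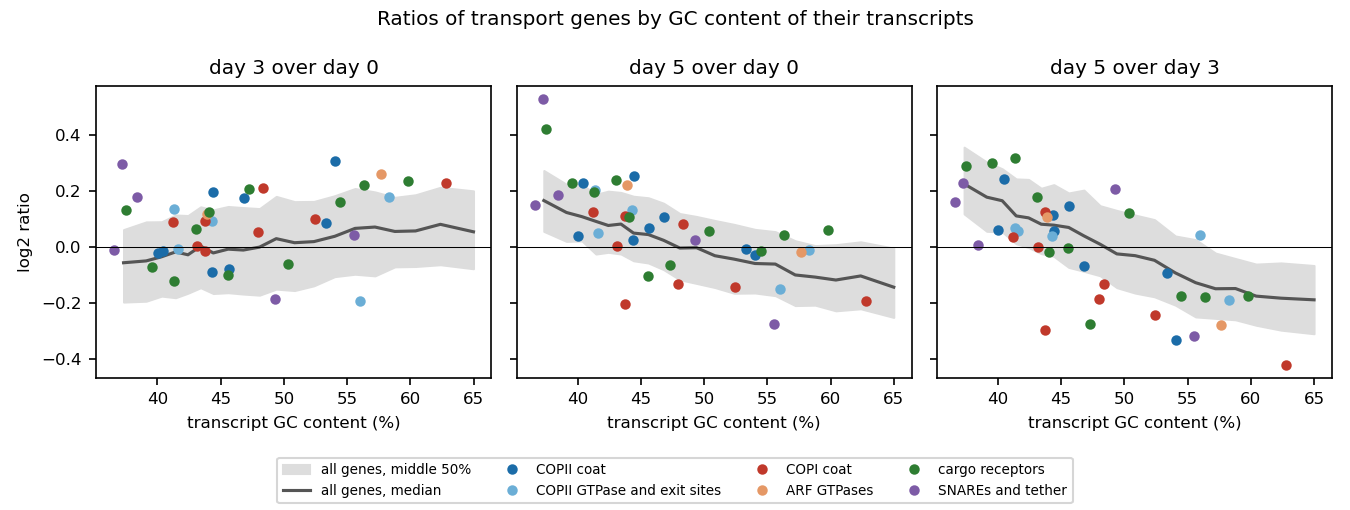
Log2 ratio for day 3 over day 0 (left), day 5 over day 0 (middle) and day 5 over day 3 (right) against transcript GC content (x axis, percent) for the 39 members (coloured points), over the median (line) and middle 50% (band) of all genes in 20 equal groups by GC content. In the middle and right panels the line falls with GC content, and in both the members' Spearman correlation with GC content is -0.70.

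Reads in introns, which come mostly from unspliced RNA, gave a different picture at day 3. The 40 genes together had 3023, 2470 and 3661 intron reads, or 2.43%, 1.88% and 2.33% of their reads. Their normalised log2 ratio was -0.27 (-0.35 to -0.20) for day 3 over day 0, where all their reads together gave 0.10 (0.08 to 0.11). This was shared with other genes: over the 9212 genes with a mean of at least 20 intron reads the median intron ratio was -0.28, and over the 31 members among them it was -0.27, with 26 below 0. For day 5 over day 0 these medians were -0.03 and 0.05.

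A wider set of 58 other genes of the same pathway was measured in the same libraries, 56 of them with enough reads. For day 3 over day 0, 11 of 56 were higher and 2 lower by the 1.2-fold rule, against 9.98% and 10.7% of all genes, with a median log2 ratio of 0.13. This count rested on the scaling: with the authors' TPM 0 were higher and 4 lower (5.07% and 20.8% of all genes), and with length and GC trends removed 2 were higher and 0 lower (7.18% and 8.71%). The highest were ZW10, a subunit of the tether that receives COPI vesicles at the ER (0.32, 0.17 to 0.47), TMED1, another p24 protein (0.32, 0.17 to 0.46), and YIF1A (0.30, 0.18 to 0.42). The lowest were SEC31B, the little-expressed paralogue of SEC31A, on 101, 72 and 133 reads (-0.47, -0.93 to -0.02), TMED8 (-0.34, -0.48 to -0.20) and the TRAPP tether subunit TRAPPC8 (-0.16, -0.26 to -0.05). Day 5 over day 0 had 0 of 56 higher and 2 lower, against 9.43% and 7.81% of all genes, with a median of 0.04. There the lowest were TRAPPC5 (-0.37, -0.47 to -0.26, with 19.7% uniquely placed reads), LMAN2L (-0.33, -0.51 to -0.15) and GBF1, the exchange factor that loads ARF for COPI (-0.21, -0.29 to -0.14). The highest were TMED6 (0.34, -0.02 to 0.71, with no uniquely placed read), TRAPPC13 (0.26, 0.06 to 0.47) and the SNARE regulator SCFD1 (0.24, 0.15 to 0.34). For day 5 over day 3, 3 of 56 were higher and 8 lower, against 12.4% and 10.9% of all genes, with a median of -0.10. The balance turned round with the authors' TPM, to 8 higher and 3 lower (23.1% and 5.66%), and with trends removed 1 was higher and 3 lower (7.77% and 5.29%). With the authors' TPM the 3 medians were 0.01, 0.02 and -0.00.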

How the data were processed

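Per the labels' protocols, RNAiso Plus was used for RNA extraction and a SMARTER mRNA-seq kit for the libraries; strand use is not stated. Per the file headers, the deposited tables give read counts per gene (total, unique and intron), TPM and exon length in bases, a value of another kind. Aligner and counting tool: not given in the sources used. The submitters' processing notes name mm10, a mouse build, but identifiers are human, and 97.6% of positions found in GENCODE 29 are identical to it, so positions are given as GRCh38; COPA and SEC23B differ. Another table's 3 sample columns were not used.

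Counts were normalised with TMM (edgeR 4.0.16, R 4.3.3), with 0.5 as prior count for log2 ratios and exact conditional intervals (Clopper-Pearson) of each ratio. A mean of at least 50 reads was required. The labels mention no molecular identifiers. Per library 87.6% to 89.2% of reads were unique. The ratio, interval and trend steps were run on simulated counts with known changes and counting error only. Differences between replicate libraries were not simulated, so that run says nothing about their size. Promoter windows are from RefSeq. Alternatives were library totals, size factors of DESeq2 1.42.0, TPM as deposited with 0.5 added, unique or exon reads, a prior of 5, no minimum or 200 reads, at least 90% unique reads, a 1.5-fold limit, and lowess trends (span 0.3) on length and GC content removed. Genes named were those 1.2-fold apart, the highest and lowest of each class, and paralogues; beyond these, members are given for completeness, and of the wider list the 3 highest and 3 lowest at each time over day 0. Members and lists were chosen with earlier results of these data known.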

Additional observations from a re-analysis of the deposited data

Results flagged for a closer look

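In 4 of 39 members the ratio over day 0 had opposite signs at day 3 and day 5, with both intervals excluding 1. The matching count over all genes was not made, so this pattern is not shown to be particular to the members. The day 5 over day 0 log2 ratio was 0.069 for SEC31A, against -0.078 at day 3, and 0.20 for TMED7, against -0.12. It was -0.19 for COPE, against 0.23 at day 3, and -0.14 for COPG1, against 0.10. With the authors' TPM COPG1 lay below day 0 at both times, at -0.03 for day 3 and -0.16 for day 5. COPE kept its opposite signs under every setting, with a day 3 ratio of at least 0.12 and a day 5 ratio of at most -0.09. COPE and COPG1 are COPI subunits with GC-rich transcripts (62.8% and 52.4%), and for TMED7 3.71% of reads were uniquely placed. With unique reads alone TMED7 had the opposite signs, -0.41 for day 5 over day 0 against 0.12 at day 3. Both ratios of a gene share the day 0 library, there is 1 library per time, and the difference between the times was not tested.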

How the results depend on the processing

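No paired analysis was possible because there is 1 library per time; for the same reason no library could be left out. Of 123 class and count results under the alternatives 107 held, as did 466 of 588 single-gene values. A count held when it was within 1.5-fold of its main value, whichever genes made it up. For day 5 over day 3, 8 members were apart with the authors' TPM, but only 4 of the 9 main genes were among them. The 3 higher and 6 lower became 7 higher and 1 lower. With library totals 7 were apart, 4 of them main genes, and with unique reads 6 were, 5 of them main genes. Some alternatives could hardly change a member result. All 39 members had a mean of at least 200 reads, and dropping the minimum added only COPZ2. The totals that held therefore overstate how steady the results are. The number of members apart for day 3 over day 0 (2) was 0 with library totals, 1 with the authors' TPM, 1 with unique reads, 1 with at least 90% unique reads and 6 with length and GC trends removed. For day 5 over day 0 (3) it was 1 with at least 90% unique reads, and for day 5 over day 3 (9) it was 2 with trends removed. At 1.5-fold it was 0 in all 3. The cargo receptor median for day 3 over day 0 (0.13) reversed to -0.0024 with the authors' TPM, which also moved all genes to -0.08. The same median for day 5 over day 3 (-0.00) was 0.072 with library totals, 0.11 with the authors' TPM, -0.084 with unique reads and -0.18 with at least 90% unique reads. The COPI median for day 5 over day 3 (-0.16) was -0.042 with the authors' TPM. TMED7 for day 5 over day 3 (0.32) reversed to -0.53 with unique reads, whose construction leaves out reads that were not uniquely placed; the other causes were not tested. Depth limits SEC24B, BET1, COPG2 and STX5 most, each with fewer than 1000 reads in every library.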
